A study of Mus musculus with 6 samples.

Results

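The olfactory receptor genes Olfr1 to Olfr299 were examined as a set of genes most of which have no known use in skeletal muscle, so that their ATAC-seq counts give a background level for each sample. An exception is Olfr16 (MOR23), which is known for a role in myogenic cells during muscle repair. Members were the rows of the transcription start site (TSS) table whose gene symbol was Olfr followed by a number from 1 to 299 and nothing else. The annotation held 212 such genes, of which 211 had a row among the 49366 rows of the table, and the remaining 1, Olfr247, was not analysed here. The 211 rows carried 210 symbols, because 2 genes on chromosome 7 are both named Olfr290. Of the members, 207 were annotated as protein coding and 4 as polymorphic pseudogenes. They lay on 15 chromosomes, with 48 on chromosome 17, 37 on chromosome 16, 28 on chromosome 7 and 21 on chromosome 9.

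Odorant receptors are G protein-coupled receptors of olfactory sensory neurons, and they form the largest gene family of the mouse genome. Each mature neuron transcribes a single receptor allele, while the other receptor genes are held in compact heterochromatin carrying methylated histone H3 and H4. The genes sit in clusters, most have a coding sequence within a single exon, and their promoters are poor in CpG dinucleotides.

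The assay was ATAC-seq, where the Tn5 transposase inserts sequencing adapters into exposed DNA, run on nuclei sorted for PCM1, a perinuclear protein that marks muscle fibre nuclei. Hindlimb muscles (gastrocnemius and tibialis anterior, TA) of male C57BL/6J mice were injected at 8 weeks of age with an AAV6 vector and collected 28 days later. One vector expressed a short hairpin RNA against Yap (Yap-shRNA) and the control vector, injected into the opposite limb, one against lacZ, a bacterial gene (LacZ-shRNA). There were 3 samples in each group, each from 4 gastrocnemius and 4 TA muscles pooled, and the labels do not tie a sample of one group to a sample of the other. A p-value therefore measures the spread between pooled samples. The shRNA acts on the Yap messenger RNA, so the Yap1 window is no check of the labels, and its difference was 0.04 ± 0.18 (SE) on the log2 scale. In bulk nuclei, a lower level in every nucleus and fewer nuclei with open chromatin cannot be told apart.

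Each window was taken to span 1 kb on both sides of all transcript starts annotated for the gene. Member windows covered 2001 to 8004 bases, with a median of 4002, so levels are given per kb of window. Counts per kb are means over the 6 samples of the deposited counts, and values per sample are CPM per kb, that is, counts scaled to library size with TMM factors and divided by the window length. Total window counts were lowest in LacZ-shRNA replicate 2, at 3326803, and highest in Yap-shRNA replicate 2, at 10319467. Member windows held between 7975 and 28709 counts per sample, and the median member held between 33 and 133. No member had a count of 0 in any sample, and 4 had a count under 10 in at least 1 sample.

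The DNA before a RefSeq start is shown for members with high and with low counts per kb. Base composition follows the range of counts per kb below. RefSeq listed 165 starts for 164 of the 210 member symbols (build GRCm38.p6), and in 131 of them the 250 bases before the start held an annotated exon, since many RefSeq starts lie at the coding sequence. There were 32 others whose window overlapped no other gene's window. Of these, the 3 members with the highest and the 3 with the lowest counts per kb are given. The bases shown for Olfr155, Olfr206 and Olfr193 lie inside the gene as annotated for the windows, between exons. Those for Olfr288, Olfr286 and Olfr39 lie before the gene. Capitals mark matches, on either strand, to CCCNNGGG (the core of the site of EBF factors), TAATTA (the core of homeodomain sites such as that of Lhx2) or TATAAA (the TATA box).
Olfr155 (chr4:43854042-43854291, plus strand): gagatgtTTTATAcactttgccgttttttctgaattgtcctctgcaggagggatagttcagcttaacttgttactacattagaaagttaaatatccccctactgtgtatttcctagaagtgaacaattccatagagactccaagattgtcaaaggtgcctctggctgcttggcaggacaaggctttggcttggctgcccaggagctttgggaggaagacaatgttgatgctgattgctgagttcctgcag
Olfr288 (chr15:98195543-98195792, minus strand): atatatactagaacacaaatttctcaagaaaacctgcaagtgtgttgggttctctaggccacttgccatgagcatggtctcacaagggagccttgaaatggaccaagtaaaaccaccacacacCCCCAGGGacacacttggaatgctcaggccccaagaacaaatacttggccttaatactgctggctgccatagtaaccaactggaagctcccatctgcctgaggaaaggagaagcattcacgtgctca
Olfr286 (chr15:98234451-98234700, minus strand): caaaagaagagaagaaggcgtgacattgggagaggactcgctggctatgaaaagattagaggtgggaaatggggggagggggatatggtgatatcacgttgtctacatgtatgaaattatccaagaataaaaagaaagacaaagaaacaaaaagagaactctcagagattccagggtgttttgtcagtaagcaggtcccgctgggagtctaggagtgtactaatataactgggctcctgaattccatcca
Olfr206 (chr16:59345727-59345976, minus strand): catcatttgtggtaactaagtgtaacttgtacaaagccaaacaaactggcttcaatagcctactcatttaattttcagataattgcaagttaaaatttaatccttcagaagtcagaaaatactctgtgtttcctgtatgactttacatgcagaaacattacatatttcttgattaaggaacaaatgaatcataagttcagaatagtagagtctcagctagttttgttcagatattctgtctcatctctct
Olfr193 (chr16:59110634-59110883, minus strand): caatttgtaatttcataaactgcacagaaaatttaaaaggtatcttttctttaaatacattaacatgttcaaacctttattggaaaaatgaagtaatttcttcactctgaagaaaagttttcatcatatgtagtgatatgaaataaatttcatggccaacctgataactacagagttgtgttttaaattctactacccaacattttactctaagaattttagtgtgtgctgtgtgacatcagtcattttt
Olfr39 (chr9:20282101-20282350, plus strand): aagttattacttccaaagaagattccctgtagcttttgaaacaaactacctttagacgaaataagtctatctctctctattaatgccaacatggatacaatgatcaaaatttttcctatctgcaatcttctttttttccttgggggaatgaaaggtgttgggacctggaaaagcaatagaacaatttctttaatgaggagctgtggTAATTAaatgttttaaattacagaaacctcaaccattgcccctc

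Olfr155, Olfr288 and Olfr286 are on chromosomes 4, 15 and 15 and had 45.5, 44.7 and 41.5 counts per kb. Olfr206, Olfr193 and Olfr39 are on chromosomes 16, 16 and 9 and had 19.5, 17.3 and 13.8 counts per kb. GC content of the bases shown was 43.6% to 48.0% for the first 3 and 28.0% to 34.8% for the last 3. Promoter here means the 250 bases before a RefSeq start, and 131 of the 165 for members held an annotated exon. That share was not counted over the 32851 promoters of the RefSeq table, so the sides may differ in it. Median GC content was 36.4% over the member promoters and 52.4% over all promoters. The median number of CpG was 1 in member promoters and 6 over all promoters, and 7.87% of all promoters held none. The EBF core was found in 3.64% of member promoters and in 11.82% of all promoters. Matches to TAATTA stood in 12.73% and 4.84%, and matches to TATAAA in 30.91% and 12.37%. The EBF core is rich in G and C and the other motifs in A and T, and the comparison was not corrected for base composition. A match is a string of letters only, and no binding was measured.

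One library stood apart in most measures of the members. LacZ-shRNA replicate 1 had the highest share of counts in member windows, and its rank order of members was the least like the others. Spearman's correlation of member counts per kb (n = 211 members, which share library and base composition) was 0.52 to 0.64 between LacZ-shRNA replicate 1 and each other sample and 0.73 to 0.85 among the other 5 samples. The group comparisons below are given with and without it.

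Member windows held low counts in all 6 samples. The median member had 25.4 counts per kb, with quartiles of 21.5 and 29.8, and the range ran from 1.99 to 63.6. Over all 49366 windows the median was 34.5 counts per kb, and over the 36366 windows that no deposited peak touches it was 32.1. Only 30 members lay above the median of all windows, and 0 lay above the median of the 15 housekeeping windows, 64.2 counts per kb. Median CPM per kb of the members was 4.30, 2.93 and 3.02 in LacZ-shRNA replicates 1 to 3 and 3.31, 3.26 and 2.84 in Yap-shRNA replicates 1 to 3. LacZ-shRNA replicate 1 was the highest of the 6 samples, and the other 5 had a mean of 3.07 ± 0.20 (SD).

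**Figure D1:**
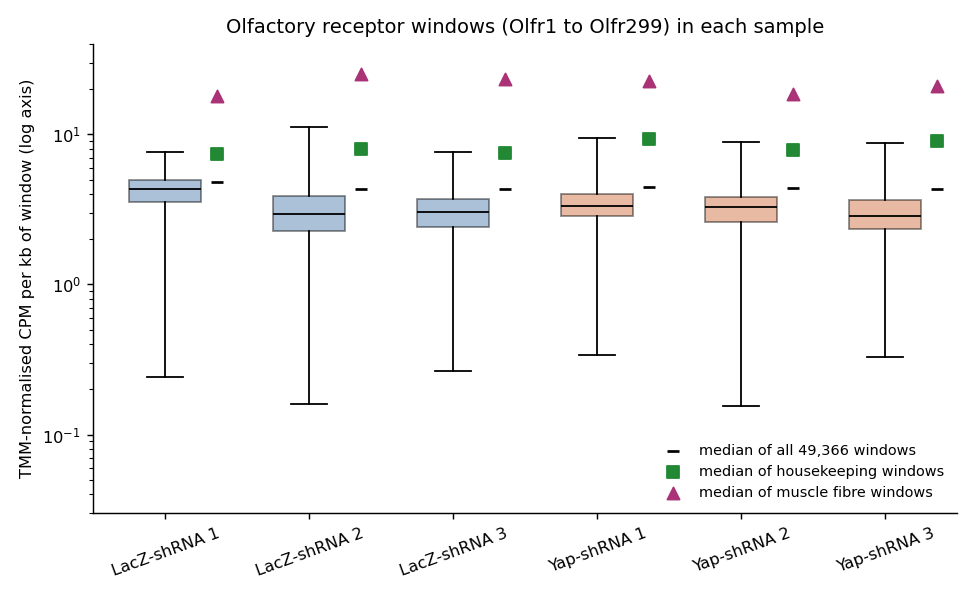
TMM-normalised CPM per kb (log axis) of the 211 member windows in each sample, with boxes from the lower to the upper quartile, a line at the median and whiskers to the lowest and highest member. Marks to the right of each box give the medians of all windows, of the housekeeping windows and of the muscle fibre windows, and the members' median was below all 3 in each of the 6 samples.

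Muscle fibre genes had the highest median of the gene lists, although the highest of all windows, outside the lists, had 130800 counts per kb. The 16 genes fixed as muscle fibre markers had a median of 162.6 counts per kb, and 9 of them had a peak in the window. Atp2a1, the calcium pump of fast fibres, had 460.2 counts per kb, Tnni2, a fast troponin, 426.2, and Ckm, the muscle creatine kinase, 313.2. None of these windows held a deposited peak, although their counts were high. The lowest of the list was Myh1, a fast myosin heavy chain, with 30.5 counts per kb, and the windows of Ckm and Myh1 overlap others, where counts are uncertain. Gapdh and Actb, at 351.6 and 218.3 counts per kb, led the housekeeping list, and all 15 housekeeping windows held a peak. Tbp and Sdha, whose windows overlap other windows, had 27.9 and 20.04 counts per kb and lay near the members.

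The ratio of the housekeeping median to the member median compares housekeeping promoters with the background in a sample, without correction for base composition. Median GC content was 50.5% for housekeeping windows, 53.4% for muscle fibre windows and 38.4% for members. The housekeeping ratio was 1.71, 2.73 and 2.49 in LacZ-shRNA replicates 1 to 3 and 2.80, 2.42 and 3.19 in Yap-shRNA replicates 1 to 3. The groups overlapped, and the Yap-shRNA mean was higher by 0.488 with a pooled SD of 0.466. Without LacZ-shRNA replicate 1, the difference was 0.188. For muscle fibre genes the ratio was 4.18, 8.64 and 7.73 in LacZ-shRNA and 6.82, 5.69 and 7.37 in Yap-shRNA. These groups overlapped as well, with a difference of -0.225 and a pooled SD of 1.77. Leaving out LacZ-shRNA replicate 1 moved the difference to -1.56, and the remaining LacZ-shRNA samples then both lay above the 3 Yap-shRNA samples.

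The total of all member windows, in CPM of the window counts of a sample without TMM factors, was 3421, 2397 and 2457 in LacZ-shRNA replicates 1 to 3 and 2864, 2782 and 2480 in Yap-shRNA replicates 1 to 3. The means were 2758 ± 575 and 2709 ± 202 (SD, n = 3 each), so the difference of -50.0 was smaller than the spread between samples. Without LacZ-shRNA replicate 1 the difference was 281.2, and the other LacZ-shRNA samples were then below the 3 Yap-shRNA samples by at least the gap between 2457 and 2480. As CPM of the counts in peaks instead, member totals were 4858, 3081 and 3206 in LacZ-shRNA and 4162, 4284 and 3633 in Yap-shRNA, where LacZ-shRNA replicate 1 was again the highest.

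**Figure D2:**
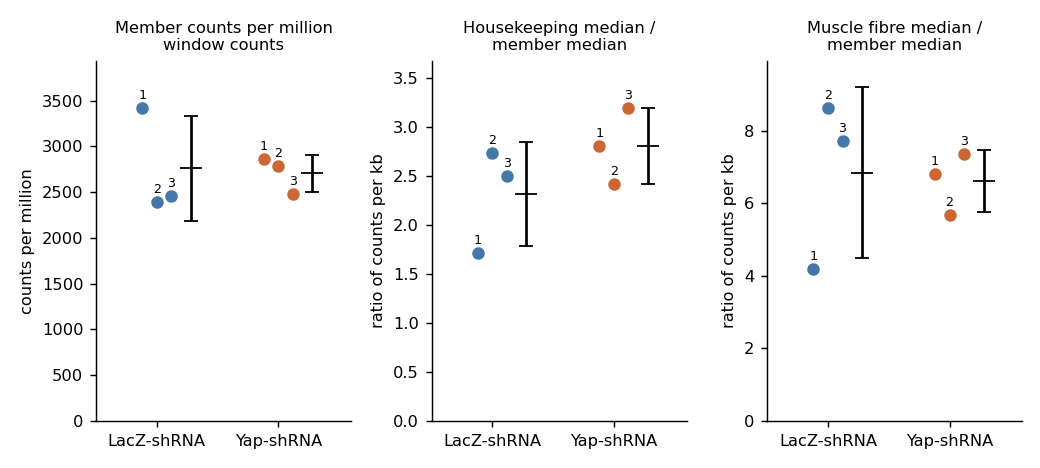
Total member counts in CPM of all window counts (left) and the ratios of the housekeeping (middle) and muscle fibre (right) median counts per kb to the member median, with 1 point per sample numbered by replicate, and a bar for the mean ± SD of each group of 3. LacZ-shRNA replicate 1 is the highest point on the left, at 3421, and the lowest in the other panels, at 1.71 and 4.18, and the groups overlap in all 3.

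Relative to the members, lists for other cell types were also lowest in LacZ-shRNA replicate 1. There, the leukocyte, endothelial and satellite cell medians were 1.11, 1.11 and 1.52 times the member median, against 1.46 to 1.76, 1.598 to 1.974 and 2.09 to 3.21 in the other 5 samples. The fibroblast list was at 1.05 times the member median in that library and at 1.08 to 1.19 in the others. Median GC content was 46.2%, 43.8%, 47.3% and 57.2% for the leukocyte, fibroblast, endothelial and satellite cell lists. It was 38.4% for the members, and the ratios were not corrected for it. Under the symbols listed, rows were present for 6 of 7 leukocyte genes and for all 6 fibroblast, 6 endothelial and 3 satellite cell genes. All of these genes had counts in every sample. Summed over each list, LacZ-shRNA replicate 1 was the lowest sample for leukocyte genes (27.55 CPM per kb, against 29.4 to 35.7) and satellite cell genes (29.1, against 32.1 to 38.3). It was within the range of the others for fibroblast genes (25.96, against 23.1 to 29.9) and endothelial genes (33.6, against 30.6 to 34.2). The summed muscle fibre level was 358.1 in that library and 367.4 to 478.8 in the others. Their part in the result was not tested.

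Relatives of the members gave a like background. The 891 windows of Olfr300 and above had a median of 23.5 counts per kb, which was 0.901 to 0.978 times the member median within a sample. Vomeronasal receptor windows of the Vmn1r family (177) and the Vmn2r family (110), which serve pheromone detection, had medians of 23.3 and 19.6 counts per kb. The 35 bitter taste receptor windows (Tas2r) had 21.7 counts per kb and the 15 trace amine receptor windows (Taar) 28.8. Median GC content followed the same order at its ends, with 34.8% for Vmn2r and 42.4% for Taar, against 38.4% for the members.

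Differences among the members went with base composition. Across the 211 members, Spearman's correlation of counts per kb with GC content of the window was 0.811, and it was 0.882 over the 196 members that overlap no other window. It was 0.498 in LacZ-shRNA replicate 1 and 0.6998 to 0.768 in the other 5 samples. The 70 members with the lowest GC content, 26.5% to 36.4%, had a median of 20.5 counts per kb, the 70 in the middle had 25.95, and the 71 with the highest, 40.1% to 51.8%, had 32.1. CpG per kb gave a correlation of 0.474 and the number of peaks within 250 kb 0.449. The share of a window made of 100-base stretches that occur elsewhere in the genome gave -0.063. Neighbouring members share their surroundings, so these values describe the set and carry no test.

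**Figure D3:**
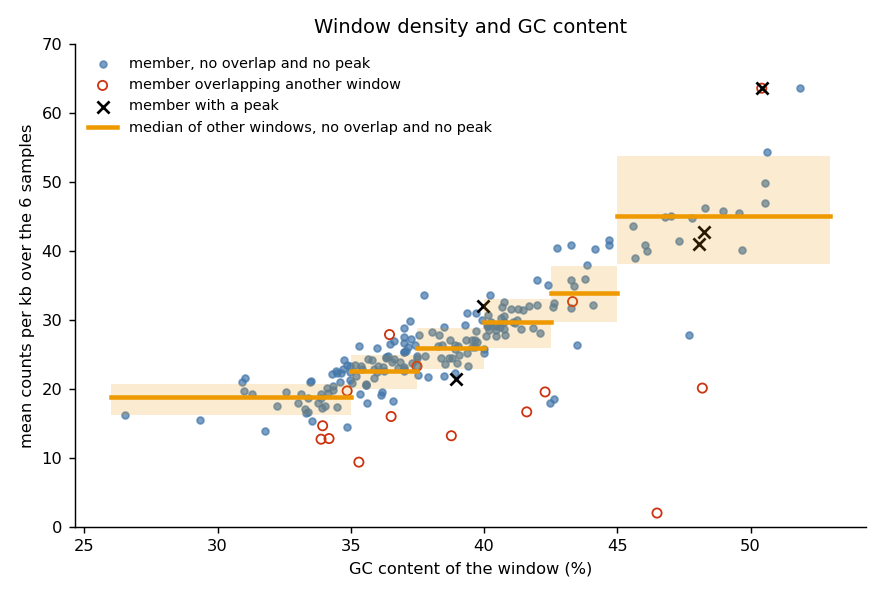
Mean counts per kb over the 6 samples against GC content (%) of the window, with 1 point per member. Orange lines and bands give the median and quartiles of other windows without an overlap or a peak, in bins of GC content. The last bin is drawn only as far as the members reach and also holds windows of higher GC content. Most members lie along the orange lines, and most members that overlap another window lie below them.

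At like GC content, members and other windows without a peak had close levels, which were not tested against each other. Among windows that neither overlapped another window nor held a peak, 40 members with up to 35% GC had a median of 19.5 counts per kb and 1350 other windows 18.8. Between 35% and 37.5% GC the medians were 23.8 over 49 members and 22.6 over 2312 other windows. Between 37.5% and 40% they were 26.15 (37 members) and 25.99 (3920), and between 40% and 42.5% they were 29.6 (34 members) and 29.7 (5378). The widest gap was between 42.5% and 45% GC, with 35.9 over 15 members and 33.9 over 5850 other windows. Above 45% GC, 17 members had 44.98 counts per kb and 12577 other windows 45.02, but these members reach only 51.8% GC and the other windows go beyond, so this bin is not matched in GC content. Median GC content was 38.4% over the members and 44.0% over all windows without a peak.

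In LacZ-shRNA replicate 1 the bins of GC content were closer together. Its median CPM per kb was 3.59 for members with up to 35% GC and 5.66 for members above 45% GC. Corresponding values in the other 5 samples were 2.15 to 2.67 and 5.28 to 6.31. That library was higher than every other sample in the lowest bin and within the range of the others in the highest bin. Other windows of the same bins behaved alike, with 3.26 in LacZ-shRNA replicate 1 and 2.08 to 2.49 in the other samples in the lowest bin.

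Members with the highest counts per kb came from a few clusters. Olfr71 (chr4:43704562-43710255, minus strand) had the highest mean, 63.6 counts per kb, at the 86.6th percentile of all windows. Its CPM per kb was 5.66, 8.04 and 7.64 in LacZ-shRNA and 9.01, 8.83 and 8.69 in Yap-shRNA. The 3 Yap-shRNA samples were all above the 3 LacZ-shRNA samples, with a log2 fold change of 0.32 ± 0.15 (SE) and an adjusted p of 0.946 in edgeR's quasi-likelihood test. The log2 fold change was 0.18 without LacZ-shRNA replicate 1. Olfr279 (chr15:98492402-98502637, plus strand) followed with 63.6 counts per kb, and its groups overlapped at 6.56, 11.2 and 6.78 against 9.42, 8.24 and 8.11 CPM per kb. Its window overlaps that of the pseudogene Olfr278-ps1, so its counts are uncertain. Olfr12 (chr1:92617788-92623412, plus strand) had 54.3 counts per kb, with 7.01, 7.93 and 6.83 CPM per kb in LacZ-shRNA and 6.52, 7.93 and 6.17 in Yap-shRNA.

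The next 7 members were Olfr222 on chromosome 11 (49.9 counts per kb), Olfr156, Olfr157 and Olfr155 on chromosome 4 (46.9, 46.3 and 45.5), and Olfr284, Olfr281 and Olfr283 on chromosome 15 (45.8, 45.1 and 44.98). All 10 had a GC content of 46.8% to 51.8%, above the 38.4% of the median member, and 15 to 18 peaks within 250 kb, against a median of 4 over all members.

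At the low end stood members whose windows overlap another gene. The 5 lowest were Olfr56 with 1.99 counts per kb, Olfr115 with 9.38, Olfr180 with 12.7, Olfr228 with 12.8 and Olfr78 with 13.2, and all 5 overlap another window. Olfr56 (chr11:48978889-49135387) overlaps the windows of 4 genes, among them Ifi47, an interferon-induced GTPase, and 59.8% of its 100-base stretches occur elsewhere in the genome. Its counts were 8, 3 and 14 in LacZ-shRNA and 20, 10 and 17 in Yap-shRNA, so its groups overlap. Over the 15 members that overlap another window the median was 16.7 counts per kb, and over the other 196 it was 26.02. Among the latter, the lowest were Olfr39, shown above, with 13.8 and Olfr198 with 14.5 counts per kb.

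Median level differed between the clusters in which members lie, and levels also ranged widely within a cluster. Olfr genes, including those outside the set, were joined into clusters where neighbours were at most 1 Mb apart, and 15 clusters held at least 5 members. The cluster at chr4:43694784-43857595, with 6 members from Olfr70 to Olfr155, had a median of 45.9 counts per kb, and that at chr15:98186013-98502637, with 9 members, 44.7. Median GC content was 49.6% and 47.3%, and peaks stood at 34.7 and 31.8 per Mb of the cluster and its flanks. The cluster at chr16:58759544-59363993, with 26 members, had the lowest median of the 15, 19.6 counts per kb, at a GC content of 34.7% and 16.3 peaks per Mb. The 45 members at chr17:37083871-38336643, next to the major histocompatibility complex, had a median of 25.5 counts per kb at 6.85 peaks per Mb. Members ran from 9.38 to 41.0 counts per kb in this cluster and from 20.1 to 63.6 in the chromosome 15 cluster, overlapping windows included. Peak density did not follow the level throughout, since clusters on chromosomes 16 (8 members), 9 (16 members) and 2 (13 members) had medians of 23.1, 23.0 and 21.9 counts per kb at 3.55, 6.37 and 3.95 peaks per Mb.

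The order of clusters was alike in 5 samples and flatter in 1. Relative to the median over all members, the chromosome 4 cluster was at 1.8 to 2.12 in 5 samples and at 1.35 in LacZ-shRNA replicate 1. For the chromosome 15 cluster these values were 1.68 to 2.16 and 1.08. The large chromosome 16 cluster was below the member median in all 6 samples, at 0.679 to 0.889.

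**Figure D4:**
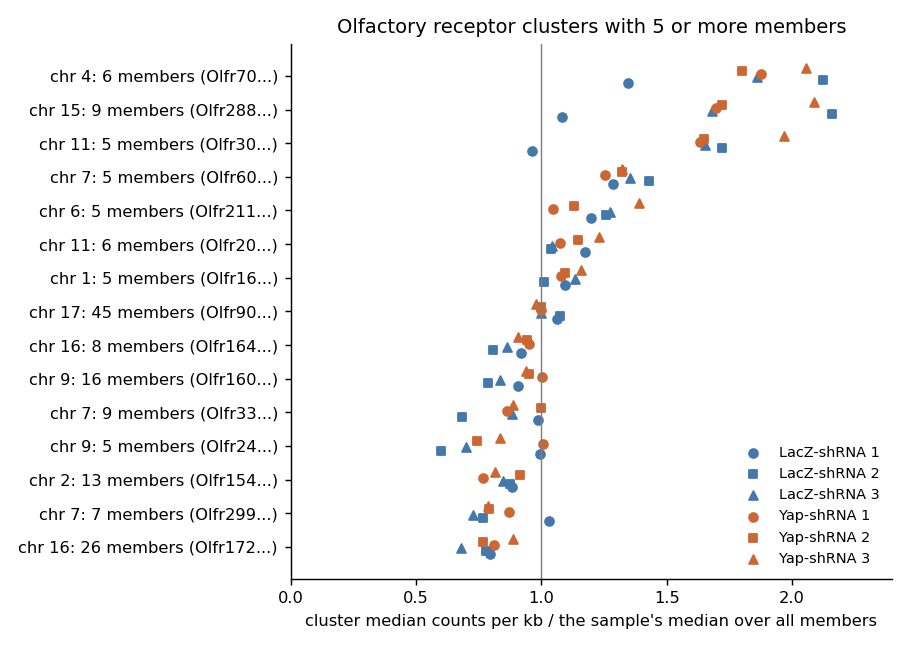
Median counts per kb of each of the 15 clusters with 5 or more members, divided by the median over all members in the same sample, with 1 point per sample and the first member named. Points for LacZ-shRNA replicate 1 lie closest to 1 in the 3 highest clusters, at 1.35, 1.08 and 0.961.

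Few members had a region that the authors' peak caller found accessible. Peaks touched 5 of 211 member windows (2.37%), against 13000 of 49366 windows (26.33%). Absence of a peak does not by itself mean low counts, as the window of Atp2a1 above shows. The 5 members were Olfr94, Olfr279, Olfr54, Olfr270 and Olfr8. For 4 of the peaks, over 70% of the bases were masked as repeats in the reference. The central 200 bases of 4 peaks are shown (GRCm38, plus strand, no letters in capitals since none of the 3 motifs matched), because they show a simple repeat in 3 and a GC-rich coding sequence in the other.
Olfr270 (chr4:52969848-52970047): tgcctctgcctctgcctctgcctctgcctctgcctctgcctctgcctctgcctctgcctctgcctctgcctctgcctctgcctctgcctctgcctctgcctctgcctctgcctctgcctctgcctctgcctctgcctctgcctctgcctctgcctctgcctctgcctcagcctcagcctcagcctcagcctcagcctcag
Olfr279 (chr15:98496787-98496986): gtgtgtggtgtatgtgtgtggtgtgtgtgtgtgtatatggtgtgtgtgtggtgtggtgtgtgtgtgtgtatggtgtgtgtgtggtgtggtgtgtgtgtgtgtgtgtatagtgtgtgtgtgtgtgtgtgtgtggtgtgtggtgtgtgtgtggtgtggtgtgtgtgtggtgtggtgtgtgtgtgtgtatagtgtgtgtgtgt
Olfr54 (chr11:51013022-51013221): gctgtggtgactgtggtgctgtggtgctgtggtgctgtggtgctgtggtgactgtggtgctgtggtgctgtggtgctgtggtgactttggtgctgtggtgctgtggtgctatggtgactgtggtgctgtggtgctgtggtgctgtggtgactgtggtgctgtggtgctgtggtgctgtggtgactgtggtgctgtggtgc
Olfr94 (chr17:37197287-37197486): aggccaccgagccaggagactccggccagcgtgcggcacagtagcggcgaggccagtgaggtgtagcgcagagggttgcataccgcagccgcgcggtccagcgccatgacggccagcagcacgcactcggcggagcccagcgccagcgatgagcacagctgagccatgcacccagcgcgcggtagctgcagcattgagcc

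The peak of Olfr270 (chr4:52969674-52970223, in an intron) held 38, 35 and 39 counts in LacZ-shRNA and 42, 44 and 50 in Yap-shRNA. That of Olfr279 (chr15:98496438-98497336, in an intron) held 58, 44 and 76 counts and 148, 120 and 121. These counts are not scaled to depth, and LacZ-shRNA replicate 2 was the shallowest sample. At Olfr54 the peak (chr11:51012824-51013421) lay before the gene in no annotated transcript, with 29, 22 and 41 counts in LacZ-shRNA and 61, 44 and 60 in Yap-shRNA.

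The peak of Olfr94 (chr17:37197120-37197654) lay over the coding exon of the gene. It was 68.2% GC and only 3.9% masked, and held 36, 19 and 65 counts in LacZ-shRNA and 47, 65 and 74 in Yap-shRNA. Its mean of 95.3 counts per kb was 2.32 times that of the whole Olfr94 window. The longest peak, at Olfr8 (chr10:78953485-78954663, in an intron), was 96.9% masked, and its 11.03 counts per kb were below the 21.5 of the window. For comparison, the median of all 36097 peaks was 110.9 counts per kb.

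Receptors that are often studied in olfactory neurons lay within the range of the other members. Olfr17, the P2 receptor, had 29.7 counts per kb, Olfr151, the M71 receptor, 31.6, and Olfr160, the M72 receptor, 27.1. Olfr16, which is the MOR23 receptor, had 30.0, Olfr2, the I7 receptor of octanal, had 24.5, Olfr10 had 31.8 and Olfr15 had 41.6. Olfr73, a receptor of eugenol, had 17.6 counts per kb. Olfr78, which is also expressed outside the nose in the carotid body and in blood vessels, had 13.2, with 2.22, 1.57 and 1.87 CPM per kb in LacZ-shRNA and 1.798, 1.416 and 1.478 in Yap-shRNA. None of the 9 windows held a peak, and the window of Olfr78 overlaps that of Olfr560. The median of the 9 was 29.7 counts per kb, against 25.4 over all members.

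Genes that act with the receptors in olfactory neurons had a higher median level than the receptors, and some of them lay below the receptors' median. Of 15 genes of olfactory signalling, 14 had a row under the symbol listed, with a median of 52.7 counts per kb. Adrbk2 had none under that symbol. Highest were Ric8b, a chaperone of the olfactory G protein (91.8), Gng13, a G protein gamma subunit (86.1), Omp, the olfactory marker protein (66.3), Adcy3, the adenylyl cyclase (63.99), and Arrb2, an arrestin (63.8). The lowest 5 were Slc24a4, a cation exchanger (21.8), Cnga2, the main subunit of the olfactory channel (23.2), Pde1c, a phosphodiesterase (35.6), Stoml3, a stomatin-like protein of cilia (39.0), and Cnga4, a modulatory channel subunit (45.01). The windows of Arrb2 and Slc24a4 overlap others. Omp and Adcy3 had no peak, and 4 of the 14 windows held one. Median GC content of the list was 51.4%, against 38.4% for the members.

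The 16 genes of receptor choice and trafficking had a median of 52.6 counts per kb, and 11 held a peak. Their highest values were those of Reep1, a receptor transport protein (112.8), Ebf3 (80.4), Lbr, the lamin B receptor (63.9), Ldb1, which bridges enhancers (63.7), and Ebf4 (60.9). At the lower end were Atf5, a factor of the unfolded protein response (16.6), Ebf1 (27.5), Emx2, a homeodomain factor (29.7), Ebf2 (38.9) and Rtp2, a receptor transport protein (43.0). Of the 10 named, the windows of Lbr, Ldb1, Atf5, Ebf1, Emx2 and Ebf2 overlap others. The list's median GC content was 55.0%, against 38.4% for the members, and the levels were not corrected for it.

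Whether Yap knockdown changed the members was tested in the fit over all windows. With edgeR's quasi-likelihood test, 11 of 49366 windows (0.0223%) passed an adjusted p of 0.05, 1 higher and 10 lower in Yap-shRNA, and 0 of the 211 members did. Neither did any of the 30 genes of olfactory signalling or of receptor choice. The lowest adjusted p of a member was 0.946. DESeq2 and the likelihood-ratio test also called 0 members, although DESeq2 gave no adjusted p for 195 of them. Data with the same depth were simulated in 1 run per size of change, with 100 members and 100 other windows changed together. The test recovered 75% of members changed by 1 on the log2 scale and 6% of members changed by 0.5. Changes of the smaller size were thus mostly not detectable in that setting. Counts were drawn independently for each window, so a shift shared by many windows of a library was not simulated.

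At an unadjusted p of 0.05, 1 member was higher and 10 were lower in Yap-shRNA, that is, 0.474% and 4.74% of members, against 1.9% and 3.01% of all windows. The groups did not overlap in 5 members with Yap-shRNA above (2.37%) and in 13 with Yap-shRNA below (6.16%), against 5.31% and 4.79% of all windows.

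Fold changes of members ranged from -0.61 to 0.32 on the log2 scale, with a median SE of 0.195. Their median was -0.090, with 65 positive and 146 negative, and the median over all windows was -0.014. Without LacZ-shRNA replicate 1 the member median was 0.103, with 141 of 211 positive, so the direction of the median rested on that library. With the total of member counts as the library size, the member median was -0.003 and that of all windows 0.054.

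**Figure D5:**
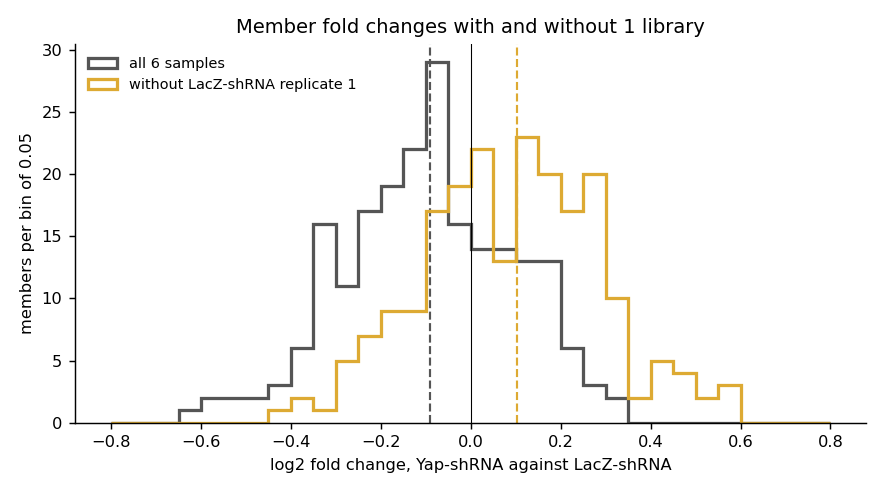
Number of members per bin of 0.05 in log2 fold change of Yap-shRNA against LacZ-shRNA, with all 6 samples (grey) and without LacZ-shRNA replicate 1 (yellow). Dashed lines mark the medians, -0.090 and 0.103, on either side of 0.

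The lower members with the smallest p were highest in LacZ-shRNA replicate 1. Olfr118 had 5.60, 3.55 and 3.45 CPM per kb in LacZ-shRNA and 3.30, 3.12 and 2.13 in Yap-shRNA (log2 fold change -0.55 ± 0.19, SE). Olfr259 had 3.16, 2.82 and 2.56 in LacZ-shRNA and 2.37, 1.76 and 1.93 in Yap-shRNA (-0.49 ± 0.17, SE). In both, every Yap-shRNA sample was below every LacZ-shRNA sample. Their log2 fold changes were -0.28 and -0.40 without LacZ-shRNA replicate 1.

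With all 6 samples Olfr64 had the largest difference, -0.61 ± 0.23 (SE), with 6.42, 3.84 and 4.27 CPM per kb against 3.36, 3.30 and 2.95. For Olfr132, where the groups overlap, CPM per kb was 5.47, 4.00 and 2.90 against 3.36, 2.33 and 2.58. Olfr140 also overlapped, at 5.92, 3.20 and 4.36 against 3.41, 3.47 and 3.04. Without LacZ-shRNA replicate 1 the log2 fold changes of Olfr64, Olfr132 and Olfr140 were -0.36, -0.25 and -0.26, and Olfr64 no longer had the largest. The adjusted p with all 6 samples was 0.946 for each of these 5 members in edgeR's quasi-likelihood test.

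In the other direction, Olfr71 had the smallest p and was described above. Olfr15 had 5.35, 4.70 and 4.45 CPM per kb in LacZ-shRNA and 5.98, 4.93 and 6.34 in Yap-shRNA, and Olfr155 had 5.92, 4.40 and 5.21 against 6.64, 6.00 and 5.94. The groups overlapped in Olfr15 and not in Olfr155. Olfr223 and Olfr49, whose groups overlap, had log2 fold changes of 0.24 ± 0.16 and 0.26 ± 0.17 (SE), and the adjusted p of these 4 was 0.946 to 0.949 in edgeR's quasi-likelihood test. Without LacZ-shRNA replicate 1 the log2 fold changes of Olfr15, Olfr155, Olfr223 and Olfr49 were 0.33, 0.33, 0.12 and 0.35.

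Scatter between replicates of a group was set against counting error. The measure was the chi-square per degree of freedom of a member's counts, given the samples' totals. Counting error alone gives it a mean of 1, with a median below 1. Over members the mean was 2.63 in LacZ-shRNA and 1.56 in Yap-shRNA, and the median 1.504 and 1.14. Over windows without a peak the means were 2.99 and 1.74 and the medians 1.87 and 1.13. The measure grows with the count. Windows without a peak reach 16410 counts per kb, so the sets are not matched in count. The counting error of a median member, as a percentage of its count, was 8.67% in Yap-shRNA replicate 2 and 17.4% in LacZ-shRNA replicate 2, the deepest and the shallowest sample.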

How the data were processed

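The deposited counts are whole numbers of reads per feature, not normalized. Per the labels and the study's methods, the authors mapped paired-end ATAC-seq reads to GRCm38 with BWA 0.7.17, dropped duplicate reads (SAMtools 1.8), and called peaks by MACS 1.4.2-1, keeping those seen in at least 2 samples. Reads over peaks and over windows at transcript starts were counted by featureCounts 1.5.0. Rows had a mean count of at least 10. The methods name a mapping quality of at least 10 for reads counted over whole genes, without saying whether this held for the windows.

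All 6 samples were used. Counts of Yap-shRNA were compared with LacZ-shRNA over all 49366 windows by edgeR 4.0.16 in R 4.3.3 (quasi-likelihood test, TMM factors, no covariate, Benjamini-Hochberg adjustment at 0.05). DESeq2 1.42.0, a likelihood-ratio test, other scalings, a mean count of at least 20, a replicate block and leaving out each sample were alternatives. The fit was tested on simulated data. Window positions came from the GENCODE annotation of the same build, and all row identifiers matched it. Of all windows, 10344 (20.95%) share bases with another gene's window, and such counts are uncertain.

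Members, gene lists and tests were chosen with earlier results of these data known. Named members were the 10 highest and 5 lowest in counts per kb, the 5 with the smallest p in each direction, 9 often studied receptors, and those with a peak. Members whose sequence is shown, and Olfr198, were named after their values were seen. In each gene list the 5 highest and 5 lowest were eligible. Replicate numbers came from the titles.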

Additional observations from a re-analysis of the deposited data

How the results depend on the processing

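The number of members that passed the threshold was 0 under all 15 alternatives run, and likewise for the pathway genes under 13. The count over all windows, 11, was 33 by the likelihood-ratio test, 20 by DESeq2 (which gave no adjusted p for 38284 windows) and 2 with the member total as the library size, and leaving out 1 sample gave 4 to 157. The 157 came without LacZ-shRNA replicate 1, 5 without Yap-shRNA replicate 1 and 4 without Yap-shRNA replicate 2, and the cause was not tested. Leaving out 1 sample, the member median log2 fold change ran from -0.223 (without LacZ-shRNA replicate 3) to 0.103 (without LacZ-shRNA replicate 1). The difference in total member CPM ran from -230.6 to 281.2, was 311.5 when scaled to peak counts and, chosen after seeing the data, -194.9 without the 1% of windows with the highest mean count. The difference in the housekeeping ratio ran from 0.188 to 0.698 and in the muscle fibre ratio from -1.56 to 0.668 when 1 sample was left out. With means in place of medians they were 0.2045 and -0.434. With list windows that overlap no other, also chosen after seeing the data, these were 0.571 and -0.291.

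Deviations from the group means of samples with the same number had correlations of 0.191, -0.121 and 0.092 between the 2 groups. For samples of different numbers the correlations ran from -0.26 to 0.199. With 3 samples in each group, these values cannot decide whether the numbers pair the samples. A replicate block called 13 windows and 0 members, with a member median of -0.089.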
